A study of Sorghum bicolor with 12 samples.

Results

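The fully elongated internode, Int4, was compared with the youngest sub-apical internode, Int1, in vegetative stems of sorghum (Sorghum bicolor). Transcripts entered the comparison when their mean level reached an RPKM (reads counted, scaled to transcript length and to library size) of 1 in either internode. Of 47205 transcripts in the table, 25650 (54.3%) met this rule, and they came from 19956 of 34211 genes. Another 670 transcripts reached an RPKM of 1 in Int2 or Int3 alone and were not members.

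Both groups came from the photoperiod-sensitive bioenergy inbred R.07020, grown in a growth chamber under 14 h days and harvested 60 days after planting without any further treatment. Int4 was the oldest and lowest of the 4 successive internodes sampled below the shoot apex and Int1 was the uppermost, with 3 libraries each (Int2 and Int3, also 3 libraries each, lay between them). Each library held polyadenylated RNA of a whole internode, so fewer cells of a type and less RNA per cell cannot be told apart in any value below. The study took the 4 internodes from 3 plants, so Int4 and Int1 do not come from separate sets of plants. All plants were of 1 inbred line in 1 environment.

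A grass internode first grows by cell division, then by the elongation of cells whose thin primary walls are loosened, and finally stops growing as vascular and fibre cells lay down thick secondary walls. Primary walls are made of cellulose embedded in hemicellulose and pectin, and proteins such as expansins and xyloglucan endotransglucosylase/hydrolases (XTH) alter their extensibility. Secondary walls hold more cellulose and xylan, made by their own sets of synthases, and are stiffened by lignin, a polymer of phenylalanine-derived alcohols. In sorghum the mature stem also stores sucrose.

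The libraries were of like depth. Taken from the spacing of the lowest RPKM values, the depth relative to Int1 replicate 1 was 0.944 to 1.06 in the 3 Int4 libraries, against 0.917 and 1.03 in the other two Int1 libraries. Replicates differed more in Int4 than in Int1, with a median SD of 0.221 in Int4 against 0.15 in Int1 on the log2(RPKM + 0.5) scale over the members. RNA in Int4 was held by fewer transcripts, since 50% of the summed RPKM lay in 1382, 1442 and 1608 transcripts in Int4, against 1742, 1649 and 1660 in Int1. The 100 most abundant transcripts of each library held 15.5, 15.6 and 14.2% of its RPKM in Int4, against 12.2, 12.8 and 12.8% in Int1. The median member lay below zero, at a log2 fold change (Int4 minus Int1) of -0.26. Scaling the libraries to a common median ratio moved this median to -0.026, and single changes are to be read against that shift.

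A transcript was called when limma, fitted on log2(RPKM + 0.5) over all 12 libraries, gave an adjusted p under 0.001 and at least a 2-fold change, and the mean of Int4 or of Int1 was an RPKM of 2 or more. By this measure 3266 members (12.7%) were higher in Int4 and 3742 (14.6%) were lower, 7008 in all. The 3 Int4 values and the 3 Int1 values did not overlap in any of the 7008, a separation that the test itself favours. Without the test, 26.5% of members had all 3 Int4 values above all 3 Int1 values, and 44.5% had all of them below. After median-ratio scaling the split turned from 46.6% of the calls being higher to 60.6% (3942 higher and 2564 lower), and no call changed direction.

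Rises were steeper than falls. At least 4-fold changes were seen for 1834 transcripts that rose and 1165 that fell, and at least 32-fold changes for 144 that rose and 35 that fell. The 3266 transcripts that rose held 33.9, 32.0 and 29.2% of the RPKM of the 3 Int4 libraries, against 6.47, 6.83 and 6.44% in Int1. The 3742 that fell held 7.6, 8.46 and 10.1% in Int4, against 27.2, 27.7 and 28.4% in Int1. Because they were called on these values, the shares describe how much of the RNA they made up and test nothing. Abundant transcripts were called most often: of the 1206 members whose higher mean reached an RPKM of 100, 358 (29.7%) rose and 316 (26.2%) fell, against 12.7% and 15.2% of those between 2 and 10.

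**Figure D1:**
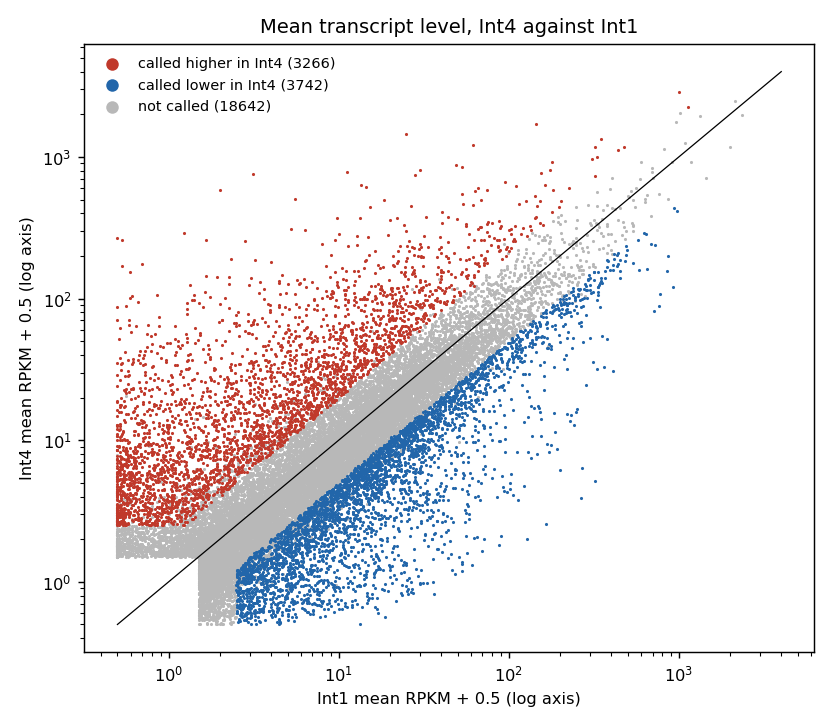
Mean RPKM plus 0.5 of each member in Int4 (vertical, log axis) against Int1 (horizontal, log axis), 3 libraries per mean, with the line of equal levels. Red points are the 3266 transcripts called higher in Int4, blue points the 3742 called lower and grey points the 18642 not called. Red points reach farther from the line than blue ones.

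The rule admits transcripts present in only one internode of the pair. A mean RPKM of 1 was reached in Int4 but not in Int1 by 2415 transcripts, and 298 of them had a mean of at least 10 in Int4. Of these 2415, 151 were listed at 0 in all 3 Int1 libraries, and 1606 also reached 1 in Int3. In the other direction 2981 transcripts reached 1 in Int1 but not in Int4, of which 130 had a mean of at least 10 in Int1, 14 were listed at 0 in all 3 Int4 libraries and 2095 also reached 1 in Int2. Many lay near the edge, with means below 2 for 1084 (44.9%) of the Int4 set and 1855 (62.2%) of the Int1 set. The rule itself drew its line in a dense region: 561 members had a higher mean of 1 to 1.1, and 583 transcripts just outside lay between 0.9 and 1.

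Most changes ran through the series of internodes in one direction. Of the transcripts that rose, 2211 (67.7%) had means in the order Int1, Int2, Int3, Int4, and of those that fell, 2566 (68.6%) had the reverse order. The highest mean of the rising set was in Int4 for 2692 transcripts, in Int3 for 568 and in Int2 for 6. The lowest mean of the falling set was in Int4 for 3103 and in Int3 for 638. Because these transcripts were called on the difference between Int4 and Int1, the place of the extremes was partly fixed by that choice. These counts describe the path and test nothing.

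Quantitative PCR primers were listed for 10 transcripts. Those of a transcript that rose and of a transcript that fell are given 5′ to 3′, to show which stretches can be used to assay both directions of change.
Sobic.001G494000.1 forward: cgtgggtatacgatggtcac
Sobic.001G494000.1 reverse: ccctccttaattccccactg
Sobic.003G328500.1 forward: ggctatcctggttgattgga
Sobic.003G328500.1 reverse: atagctgaaacgccgacaag
Sobic.001G494000.1 had an RPKM of 39.82, 26.76 and 31.60 in Int4, against 0.21, 0.40 and 0.31 in Int1. Sobic.003G328500.1 had 0.18, 0.40 and 2.88 in Int4, against 64.11, 67.83 and 75.89 in Int1. The first was higher in every Int4 library and the second lower (log2 fold change 5.35 ± 0.28 and -5.77 ± 0.45, SE). Of all 10, 7 were called higher in Int4, 2 were called lower, and Sobic.008G112200.1 was not called (log2 fold change 0.94, limma adjusted p = 0.00319).

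The largest rises included a block of neighbouring gene numbers on chromosome 6. Sobic.006G025900.2 had an RPKM of 179.23, 299.34 and 316.50 in Int4 and was listed at 0 in all 3 Int1 libraries. Sobic.006G026100.1 had 148.95, 366.30 and 259.20 in Int4, against 0, 0 and 0.10 in Int1, and Sobic.006G026400.1 had 88.40, 118.33 and 103.22 in Int4, against 0, 0 and 0.32 in Int1. Across Sobic.006G025700 to Sobic.006G026600, every member was called higher except Sobic.006G025800.1 and Sobic.006G026500.1, whose Int4 means were below 2, and Sobic.006G026250.1, with 4.14, 5.52 and 6.20 in Int4 against 11.00, 9.17 and 9.77 in Int1. This block was picked out after its values were seen. The sources used here name no function for it.

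The steepest well-replicated rise was that of Sobic.002G207300.1, with an RPKM of 552.32, 623.62 and 563.70 in Int4, against 1.03, 1.54 and 1.91 in Int1. It opened a run of 7 consecutive member genes, Sobic.002G207300 to Sobic.002G208200, that all had calls higher in Int4 (log2 fold change 2.12 to 8.21), the longest such run, and also found after seeing the values. The last of them, Sobic.002G208200.1, best matches an Arabidopsis cellulose synthase-like gene of the C group (CSLC, which make the glucan backbone of xyloglucan) and had 36.12, 27.38 and 27.69 in Int4, against 6.68, 6.58 and 6.43 in Int1. Some large rises varied widely among Int4 libraries: Sobic.010G177800.1 had 92.96, 384.25 and 32.64 in Int4, against 0.09, 0 and 0 in Int1.

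The largest falls were most complete in the first 2 of the 3 Int4 libraries. Sobic.008G079800.1 had an RPKM of 1.29, 0.51 and 12.20 in Int4, against 396.36, 293.11 and 273.12 in Int1. Sobic.003G300701.1 had 0.29, 1.56 and 4.37 in Int4, against 131.61, 159.52 and 205.51 in Int1, and Sobic.003G387700.1 had 0.51, 0.77 and 3.2 in Int4, against 118.79, 122.63 and 140.69 in Int1. In all 8 of the largest falls Int4 replicate 3 held the highest of the Int4 values. The same library was the one nearest to Int1 for 2601 (69.5%) of all transcripts that fell and 1607 (49.2%) of those that rose.

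In abundance, the largest single rise was in Sobic.002G324200.1, with 2787.78, 3034.04 and 2793.88 RPKM in Int4, against 954.82, 1014.88 and 1053.95 in Int1. Sobic.009G161500.1 had 1693.43, 1556.10 and 1131.89 in Int4, against 27.78, 24.80 and 20.01 in Int1. The largest drop was in Sobic.006G076000.1, with 146.39, 84.65 and 126.55 in Int4, against 995.85, 860.72 and 910.74 in Int1. Not every abundant transcript changed. Sobic.008G136000.1, among the 3 most abundant in both internodes, had 2570.47, 2377.17 and 2444.78 in Int4, against 2196.59, 2144.20 and 2100.43 in Int1 (log2 fold change 0.20, limma adjusted p = 0.139).

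Roles could be given to the 766 members that appear in the study's table of annotated transcripts, which was held here only in part. The study filled that table with transcripts that differed between internodes in these same libraries, so the counts below are not independent evidence of a direction. Of the 766, 347 (45.3%) rose and 224 (29.2%) fell, against 11.7% and 14.1% of the 24884 other members. The list counts are to be read against the shares of the 766, and a list near them shows no leaning of its own. The lists below came from its annotation bins, and Arabidopsis names are those of the best match given there.

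**Figure D2:**
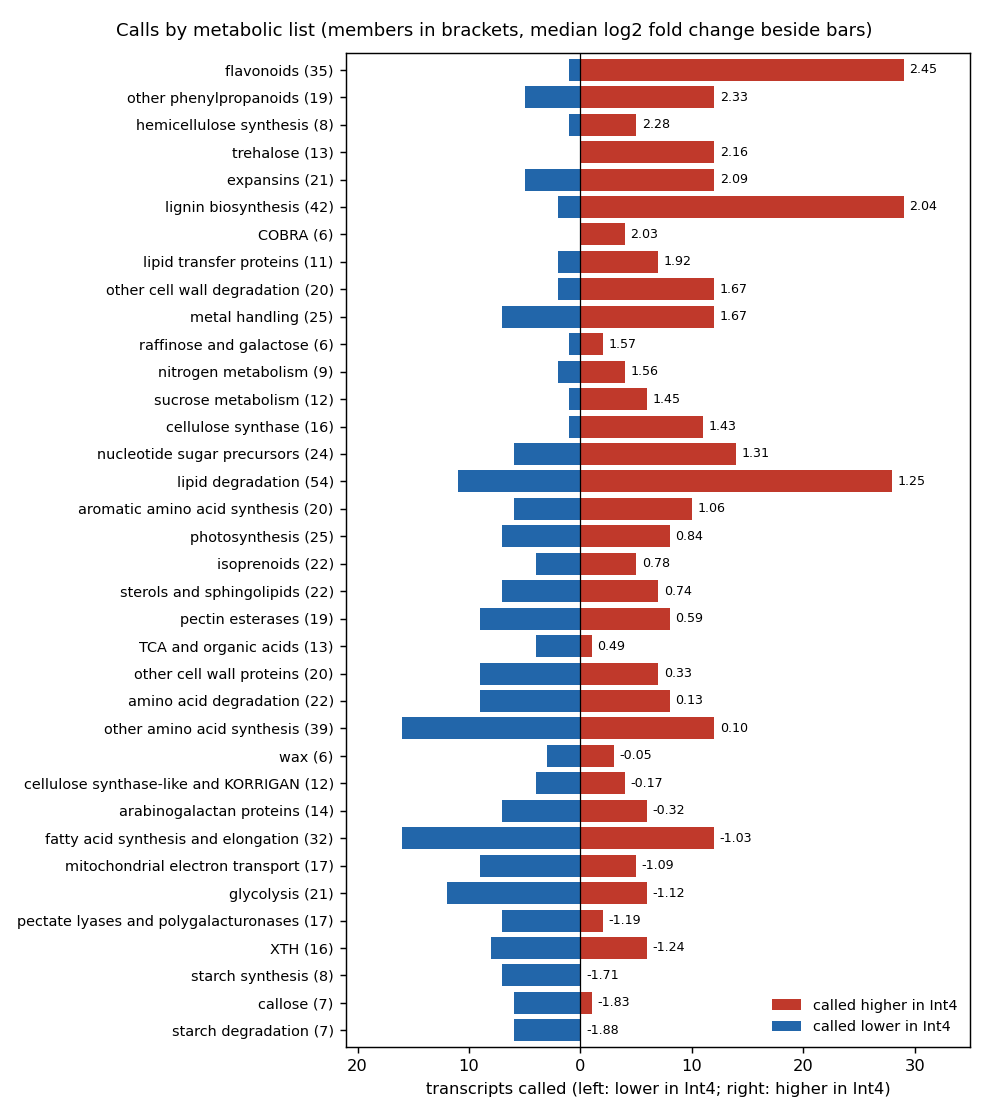
Number of transcripts called higher in Int4 (red, right of zero) and lower in Int4 (blue, left of zero) in each of 36 metabolic lists, with the members of each list in brackets and its median log2 fold change (Int4 minus Int1) beside the bar. Flavonoid and lignin lists have 29 higher calls each, while starch synthesis and starch degradation have none.

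Most cellulose synthases rose. Of 16 members of the cellulose synthase list, 11 were called higher and 1 lower, with a median log2 fold change of 1.43 against -0.26 over all members. Without Int4 replicate 1 the number called lower was 2. The summed RPKM of the list was 3029, 2441 and 2233 in Int4, against 803.7, 859.6 and 811.7 in Int1.

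The 3 transcripts whose best Arabidopsis matches are the secondary wall synthases rose the most, from low levels. Sobic.003G296400.1, the match of CESA8, had an RPKM of 186.39, 126.04 and 127.02 in Int4, against 3.81, 4.34 and 4.2 in Int1. Sobic.002G205500.1, the match of CESA7, had 176.79, 108.96 and 100.90 in Int4, against 3.09, 4.2 and 4.52 in Int1, and Sobic.001G224300.1, the match of CESA4, had 184.97, 101.34 and 92.86 in Int4, against 3.53, 4.82 and 5.17 in Int1. In Arabidopsis these 3 proteins work in one complex of the secondary wall. Their log2 fold changes were 4.97, 4.84 and 4.61, with SE of 0.38, 0.39 and 0.37. Their levels were close to each other within each library, and Int4 replicate 1 was the highest for all 3. None was at 0 in Int1, so secondary wall synthesis transcripts were present in the youngest internode as well.

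The matches of the primary wall synthases CESA1, CESA3 and CESA6 began at high levels and changed less. The match of CESA2, described below, began lower than these 3 and rose more steeply. Sobic.009G063400.1 (CESA1) had 266.48, 229.60 and 237.48 RPKM in Int4, against 149.81, 150.30 and 143.67 in Int1, and was not called (log2 fold change 0.72, limma adjusted p = 5.22e-05). Sobic.001G021500.1 (CESA6) had 281.52, 283.89 and 220.09 in Int4, against 131.11, 132.33 and 126.93 in Int1, just under the 2-fold limit. Sobic.002G075500.1 (CESA3) had 288.17, 237.11 and 233.77 in Int4, against 111.18, 111.96 and 101.98 in Int1, and was called. For all 3 of these genes the Int4 and Int1 values did not overlap. After median-ratio scaling the CESA6 match was called as well, at a log2 fold change of 1.26, and the CESA1 match was not, at 0.98.

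The most abundant cellulose synthase transcript in Int4, Sobic.002G118700.1 (CESA2 match), had 545.47, 518.65 and 424.51 RPKM in Int4, against 59.39, 60.75 and 84.48 in Int1. The other two annotated transcripts of that gene also rose (log2 fold change 1.56 and 2.43), but these 2 calls were lost when some single libraries were left out: that of Sobic.002G118700.2 without Int4 replicate 1 or Int4 replicate 2 (adjusted p = 0.00198 and 0.00199), and that of Sobic.002G118700.3 without Int1 replicate 3, Int4 replicate 1 or Int4 replicate 3 (adjusted p = 0.00126, 0.00143 and 0.00121). Reads common to the transcripts of one gene cannot be told apart with certainty, so isoform values are uncertain.

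The list also holds cellulose synthase-like D genes, whose products act in tip growth and in the new wall laid between daughter cells. Sobic.008G125700.1, the match of CSLD5, which in Arabidopsis acts at the cell plate of dividing cells, had 0.08, 0.30 and 1.09 RPKM in Int4, against 29.10, 33.59 and 43.59 in Int1, and was the single member to fall (log2 fold change -5.29 ± 0.34, SE; limma adjusted p = 1.15e-07). Its mean was already 2.05 in Int3 but 25.49 in Int2. Another D-group transcript moved the other way: Sobic.007G050600.1 (CSLD2 match) had 386.54, 297.26 and 222.36 in Int4, against 87.34, 113.66 and 97.19 in Int1.

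**Figure D3:**
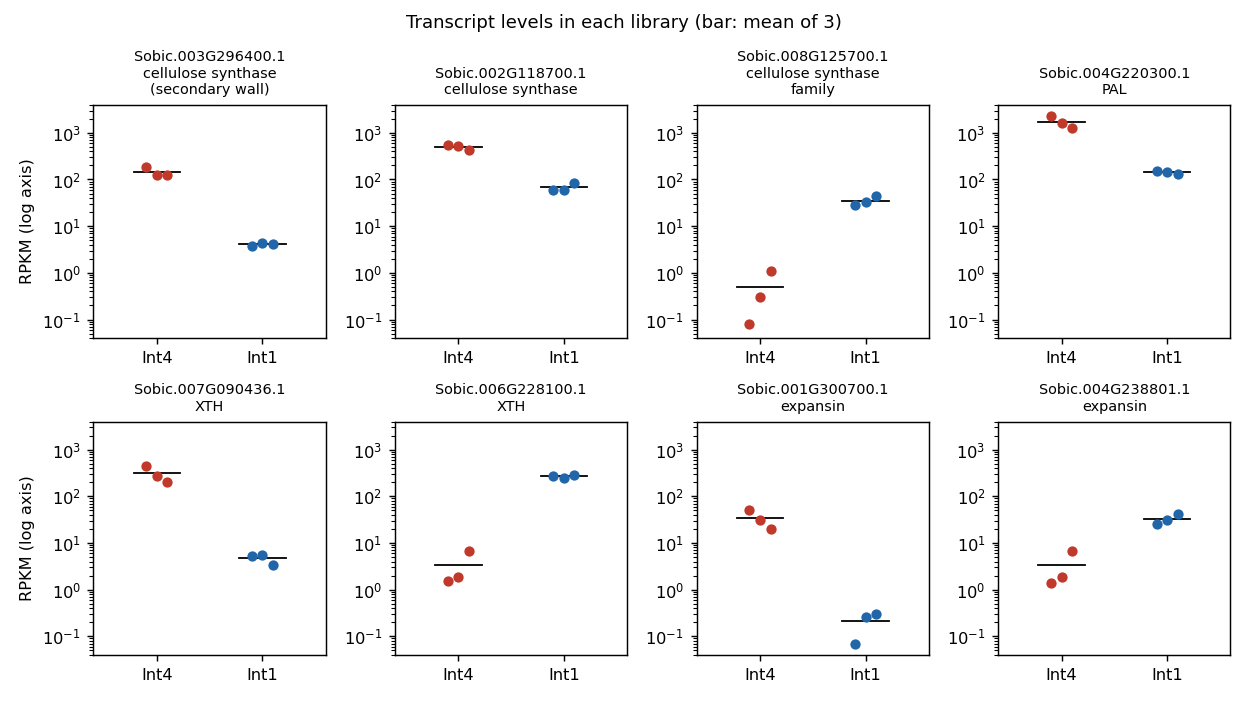
RPKM of 8 wall and lignin transcripts in each Int4 library (left) and each Int1 library (right), on a log axis, with a bar at the mean of 3. The secondary wall cellulose synthase Sobic.003G296400.1, the phenylalanine ammonia-lyase (PAL) Sobic.004G220300.1, XTH Sobic.007G090436.1 and expansin Sobic.001G300700.1 lie far higher in Int4, and Sobic.008G125700.1, Sobic.006G228100.1 and Sobic.004G238801.1 far lower. No panel has overlapping groups.

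Proteins that assist cellulose assembly showed a like division. COBRA proteins anchor at the cell surface and help to order cellulose, and 4 of 6 members were called higher and 0 lower. Sobic.001G336700.1, the match of the secondary wall protein COBL4, had 78.95, 46.03 and 41.35 RPKM in Int4, against 1.04, 0.67 and 0.59 in Int1. Sobic.001G086200.1, the match of COBRA itself, which guides oriented cell expansion in Arabidopsis, had 381.41, 329.51 and 319.88 in Int4, against 154.66, 163.08 and 137.80 in Int1. The secondary wall type was thus near absent from Int1, whereas the general type was already abundant there.

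KORRIGAN, a membrane-bound glucanase that cellulose synthesis requires, is listed with the cellulose synthase-like genes, of which 4 of 12 members rose and 4 fell. Of its 2 matches, Sobic.001G099100.1 had 346.73, 278.27 and 288.91 RPKM in Int4, against 137.21, 137.96 and 128.67 in Int1, and Sobic.006G282300.1 had 71.51, 47.73 and 30.51 in Int4, against 4.79, 6.23 and 3.72 in Int1. Of the group A genes, which make mannan, Sobic.004G075900.2 fell to 50.83, 28.87 and 54.09 in Int4, against 164.53, 175.18 and 172.08 in Int1, while Sobic.004G238700.1 rose to 16.20, 19.77 and 22.97 in Int4, against 5.29, 5.37 and 6.73 in Int1.

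Most xylan synthesis genes rose. Of 8 members of the hemicellulose list, 5 were called higher and 1 lower, with a median log2 fold change of 2.28. Its glucuronoxylan bin held 5 of these members, of which 4 were called higher and 0 lower (median 3.19). Sobic.001G409100.1, the match of IRX9, which takes part in building the xylan backbone, had 144.63, 95.54 and 86.59 RPKM in Int4, against 7.42, 8.88 and 10.02 in Int1. Sobic.003G376700.1, the match of a glucuronyltransferase that decorates xylan, had 319.77, 336.55 and 292.60 in Int4, against 116.55, 118.24 and 128.23 in Int1. The member that fell, Sobic.004G308600.1, is annotated by its match to a xyloglucan fucosyltransferase, an enzyme of primary wall hemicellulose, and had 0.30, 0.17 and 0.07 in Int4, against 3.57, 2.24 and 2.11 in Int1. Its neighbour Sobic.004G308400.1, picked out after its value was seen, has the same best match and rose (log2 fold change 3.18).

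Nucleotide sugars, the activated sugars from which these polymers are made, had 14 of 24 transcripts called higher and 6 lower. The number called higher was 9 without Int1 replicate 1, and also 9 without Int1 replicate 3. Among those that rose was Sobic.006G217300.1, the match of MUR4, which makes UDP-arabinose, with 72.93, 56.34 and 51.91 RPKM in Int4, against 12.25, 11.64 and 12.47 in Int1. Sobic.003G442300.1, a match of UDP-apiose/xylose synthase, fell to 31.52, 24.54 and 30.07 in Int4, against 119.81, 124.37 and 119.33 in Int1. Apiose occurs in pectin. Sobic.001G084100.4, a UDP-glucose dehydrogenase transcript, varied widely in Int4, at 253.53, 60.35 and 90.61, against 20.58, 18.99 and 17.89 in Int1, and its call was lost when any 1 Int1 library was left out (adjusted p = 0.00113 to 0.00144).

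Arabinogalactan proteins sit at the cell surface and in the wall. Of these, 6 of 14 were called higher and 7 lower, against 45.3% and 29.2% of the 766 annotated members. Sobic.003G062000.1, the match of FLA11, a fasciclin-like protein of Arabidopsis secondary walls, had 391.82, 235.23 and 197.91 RPKM in Int4, against 11.67, 12.99 and 12.37 in Int1. In the other direction, Sobic.007G214700.1 (FLA7 match) had 15.25, 6.09 and 14.09 in Int4, against 102.94, 96.39 and 83.82 in Int1. Other wall proteins had 7 of 20 higher and 9 lower, to be read against the same shares.

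Lignin genes rose at most steps of the pathway. Of 42 members, 29 were called higher and 2 lower, with a median log2 fold change of 2.04, and 39 of the 42 had a positive fold change. The summed RPKM of the list was 5710, 4135 and 3519 in Int4, against 730.8, 752.2 and 692.8 in Int1. In Int4 the 3 sums differed by more than in Int1, and replicate 1 was the highest of them.

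The largest part of this sum was phenylalanine ammonia-lyase, PAL, which opens the pathway by removing ammonia from phenylalanine. Sobic.004G220300.1 alone had an RPKM of 2265.20, 1622.31 and 1268.02 in Int4, against 155.29, 145.78 and 134.00 in Int1. The listed PAL genes 004G220400.1, 004G220500.1 and 004G220700.1 rose too, with log2 fold changes of 2.25, 3.16 and 2.70. Together with Sobic.004G220600.1, which the copy of the table does not hold, they form 5 consecutive gene numbers on chromosome 4 that all were higher in Int4. This gene, named after its values were seen, had 95.57, 104.71 and 99.85 in Int4, against 1.63, 1.87 and 1.40 in Int1 (log2 fold change 5.56), the steepest of the 5. Where neighbouring copies are near identical, reads could have been shared among them.

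The enzymes that follow PAL hydroxylate cinnamate, join it to coenzyme A and prepare it for the next ring changes. Cinnamate hydroxylase Sobic.004G141200.1 had 14.99, 10.05 and 7.01 RPKM in Int4, against 0.39, 0.52 and 0.75 in Int1, while a second listed transcript for that step, Sobic.003G337400.1, had 5.48, 1.63 and 2.26 in Int4, against 1.90, 2.01 and 1.49 in Int1, with overlapping groups. The 4-coumarate:CoA ligase Sobic.004G062500.1 had 220.84, 158.32 and 119.70 in Int4, against 19.32, 16.90 and 16.58 in Int1. The shikimate transferase (HCT) Sobic.004G212300.1 had 149.81, 100.81 and 88.10 in Int4, against 6.36, 9.51 and 7.73 in Int1. The first of these was below 1 RPKM in Int1 while the ligase and transferase were not, and all of them were called except Sobic.003G337400.1. The coumarate hydroxylase Sobic.009G181800.1 differed by less than 2-fold, with 81.62, 58.90 and 54.90 in Int4, against 34.64, 35.88 and 33.61 in Int1 (log2 fold change 0.88, limma adjusted p = 0.000646).

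Methylation of the ring helps to set the kind of lignin unit, and caffeoyl-CoA O-methyltransferase (CCoAOMT) carries out one such step. CCoAOMT Sobic.007G218800.1 had 231.44, 136.31 and 142.05 RPKM in Int4, against 7.65, 7.99 and 7.99 in Int1, and Sobic.010G052200.1, the more abundant of both, had 472.69, 330.99 and 321.36 in Int4, against 139.27, 155.43 and 136.57 in Int1. The methyl donor for this enzyme is S-adenosylmethionine, and its synthetase Sobic.009G033600.1 had 1415.87, 1124.61 and 993.57 in Int4, against 491.52, 486.67 and 442.99 in Int1.

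The final reductions to the lignin alcohols are made by CCR and CAD. CCR Sobic.007G141200.1 had 192.60, 110.94 and 87.79 RPKM in Int4, against 31.66, 28.36 and 29.01 in Int1, but the call was lost without Int4 replicate 1 or any 1 of the Int1 libraries (adjusted p = 0.00108 to 0.00135). CAD Sobic.004G071000.1 had 74.63, 48.59 and 40.34 in Int4, against 12.94, 15.45 and 13.71 in Int1. A second CAD-type transcript, Sobic.006G014700.1, had 20.24, 17.03 and 14.39 in Int4, against 0, 0 and 0.06 in Int1.

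The 2 lignin list members that fell were both ligase-type transcripts whose best match is not a lignin 4-coumarate:CoA ligase but a peroxisomal relative in Arabidopsis. Sobic.001G189300.1 had 7.02, 4.67 and 7.19 RPKM in Int4, against 18.29, 16.55 and 16 in Int1, and Sobic.003G391600.1 had 4.11, 3.1 and 3.89 in Int4, against 9.43, 10.22 and 9.65 in Int1. An HCT-type transcript, Sobic.004G328700.1, had 0.20, 0.37 and 0.60 in Int4, against 1.78, 6.12 and 5.76 in Int1, and was not called (limma adjusted p = 0.0045). These 3 were the only lignin list members with a negative fold change. The same peroxisomal match does not fix the direction, since Sobic.002G009600.1 shares it and rose to 9.22, 8.80 and 7.22 in Int4, against 0.64, 1.01 and 0.79 in Int1.

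**Figure D4:**
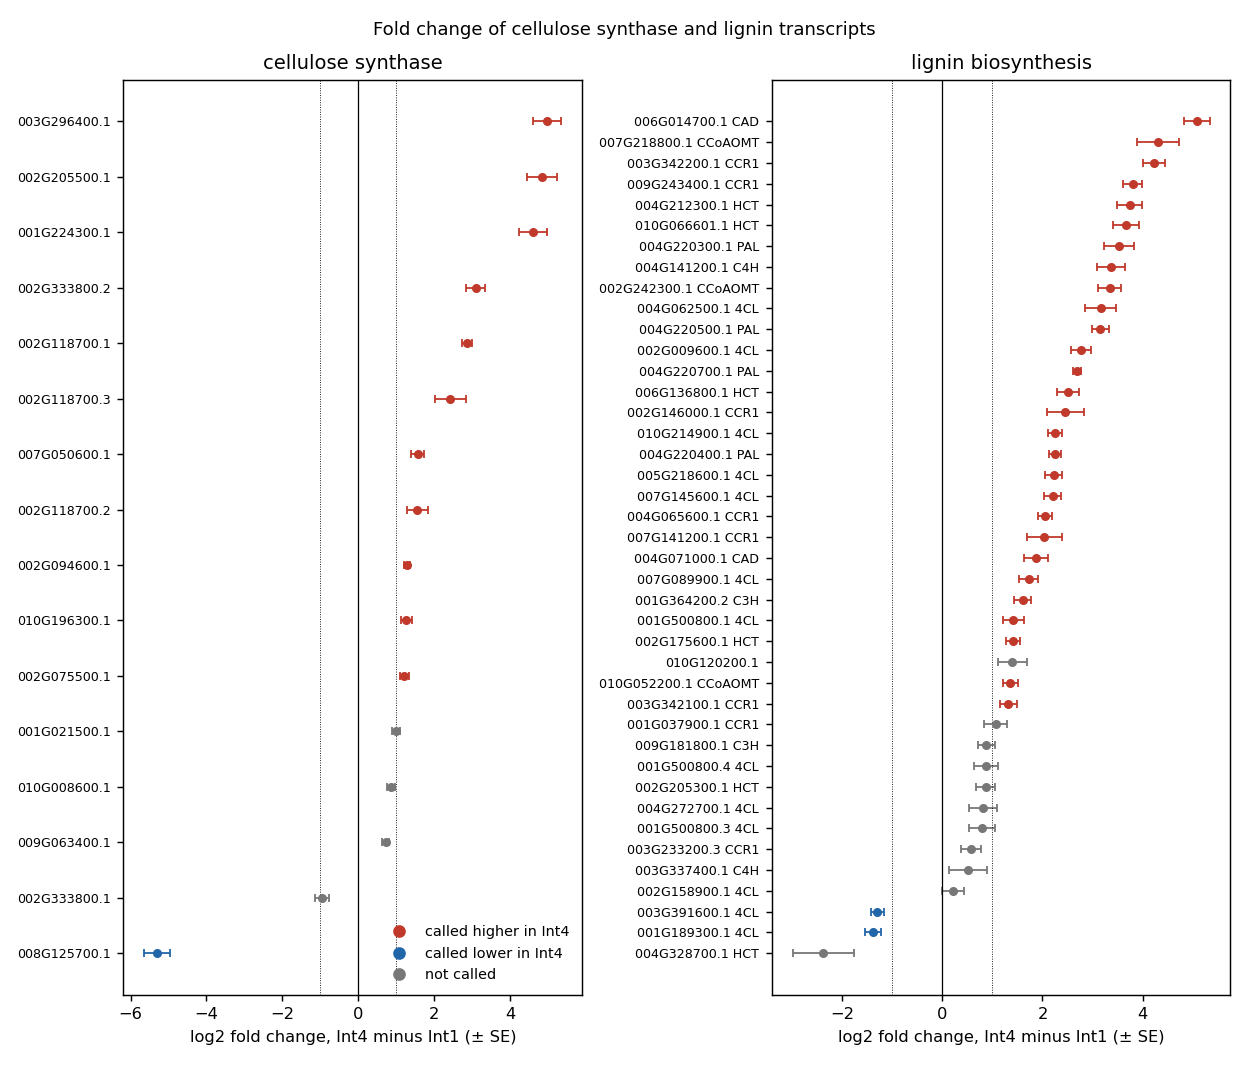
Log2 fold change (Int4 minus Int1, limma) with its SE for the members of the cellulose synthase list (left, 16 transcripts) and of the lignin list (right, 41 of 42 transcripts), each named by its identifier without the prefix Sobic. Red points were called higher in Int4, blue lower and grey not called, and dotted lines mark 2-fold. The 3 secondary wall cellulose synthases stand apart at 4.61 to 4.97, and lignin points spread from -2.38 to 5.08.

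Phenylalanine itself comes from the shikimate pathway, and 10 of 20 aromatic amino acid transcripts rose and 6 fell. These counts were near the shares of the 766 annotated members (45.3% and 29.2%). The fall count was 3 without Int1 replicate 2, and also 3 with a pseudocount of 1, after median-ratio scaling, with the replicate number as a block over 6 libraries, and with a mean RPKM of at least 2 required over both internodes. Arogenate dehydratase Sobic.006G066200.1, at the last steps to phenylalanine, had 159.56, 128.93 and 103.71 RPKM in Int4, against 6.37, 6.34 and 6.58 in Int1. The entry enzyme of the pathway, DAHP synthase Sobic.001G351000.1, had 325.37, 246.71 and 206.91 in Int4, against 78.96, 70.33 and 63.02 in Int1. The named falls lay on the branch to tryptophan: anthranilate synthase Sobic.006G109100.1 had 5.32, 5.08 and 10.61 in Int4, against 36.88, 38.63 and 37.81 in Int1. That branch was itself divided. Of 4 anthranilate synthase members 1 was called higher and 1 lower, and the 2 members of the general tryptophan bin also split. All 3 indole-3-glycerol phosphate synthase members fell, while both tryptophan synthase members rose. One of these 2, Sobic.001G056500.1, had 98.76, 105.32 and 115.06 in Int4, against 8.70, 9.27 and 7.70 in Int1.

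Cytosolic glutamine synthetase, which takes up ammonia such as that set free by PAL, rose in all 4 transcripts of Sobic.004G247000 (log2 fold change 2.17 to 2.85). The most abundant, Sobic.004G247000.4, had 265.62, 186.02 and 155.12 RPKM in Int4, against 24.84, 34.01 and 22.85 in Int1. These 4, all from 1 gene, made up all of the higher calls among 9 nitrogen metabolism members, and 2 others fell (1 after median-ratio scaling). Of the 2 that fell, 1 was the remaining member of the glutamine synthetase bin. Amino acid synthesis outside the aromatic branch was mixed, at 12 of 39 higher and 16 lower (14 and 12 after scaling).

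Flavonoid genes, which draw on the same phenylpropanoid precursors, also rose in most members. Of 35 members held in the copy, 29 were called higher and 1 lower, with a median log2 fold change of 2.45. Sobic.006G226700.1, annotated as anthocyanidin reductase, an enzyme of condensed tannin synthesis, had 43.44, 41.77 and 33.46 RPKM in Int4, against 0.60, 0.90 and 0.25 in Int1. Flavonoid hydroxylase Sobic.009G162500.1 had 88.92, 58.91 and 54.61 in Int4, against 1.24, 1.74 and 1.49 in Int1. The exception, Sobic.002G070800.1, a glucosyltransferase transcript, had 1.34, 1.40 and 1.15 in Int4, against 7.68, 8.61 and 8.21 in Int1. Other phenylpropanoid genes had 12 of 19 higher and 5 lower, led by the O-methyltransferase-type Sobic.009G197800.1 with 25.22, 24.93 and 34.44 in Int4, against 0.22, 0.21 and 0.24 in Int1.

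Genes that loosen or remodel the wall were called in both directions, as the annotated members were in general. Expansins, which loosen primary walls, had 12 of 21 members called higher and 5 lower. The shares of the 766 annotated members were 45.3% and 29.2%. Sobic.001G300700.1 had 50.17, 30.30 and 20.31 RPKM in Int4, against 0.07, 0.26 and 0.30 in Int1, and its near neighbours Sobic.001G300500.1 and Sobic.001G301600.1 had log2 fold changes of 5.04 and 4.61. All 3 match the B group of expansins, and none had overlapping groups. The most abundant expansin, Sobic.001G301500.1, had 141.53, 173.35 and 181.92 in Int4, against 18.75, 34.10 and 26.13 in Int1. In contrast, Sobic.004G238801.1, the match of EXPA1, had 1.41, 1.85 and 6.81 in Int4, against 25.85, 31.04 and 41.12 in Int1, and Sobic.004G227900.1 had 12.14, 7.32 and 9.23 in Int4, against 66.10, 79.36 and 92.10 in Int1.

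XTH enzymes, which cut and rejoin xyloglucan chains, had 6 of 16 members called higher and 8 lower. Sobic.006G228100.1 was among the largest falls of all members, with 1.51, 1.84 and 6.81 RPKM in Int4, against 265.82, 241.95 and 292.26 in Int1 (log2 fold change -6.36 ± 0.37, SE). Sobic.002G194500.1 had 0.78, 0.63 and 9.39 in Int4, against 107.57, 100.07 and 109.77 in Int1. Sobic.007G090436.1 rose to 455.43, 266.45 and 206.22 in Int4, against 5.30, 5.57 and 3.37 in Int1. Their sum nonetheless differed little, at 1230, 1148 and 919.4 in Int4, against 893.7, 933.1 and 950.0 in Int1, and the groups overlapped.

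A set of 3 neighbouring XTH genes on chromosome 10 showed all 3 outcomes. Sobic.010G246500.1, named for its place beside the others after its values were seen, fell to 0.40, 0.31 and 0.58 RPKM in Int4, against 3.51, 5.90 and 4.06 in Int1, and Sobic.010G246600.1 rose to 12.73, 14.43 and 7.41 in Int4, against 0.05, 0 and 0 in Int1. The third and most abundant, Sobic.010G246700.1, had 530.67, 718.81 and 535.03 in Int4, against 370.99, 423.47 and 386.23 in Int1, and was not called (log2 fold change 0.58, limma adjusted p = 0.00263). Its highest mean, 1021, was in Int3.

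Pectin genes moved in both directions. Pectate lyases and polygalacturonases, which cut pectin, had 2 of 17 members called higher and 7 lower. The pectin esterase list had 8 of 19 higher and 9 lower. Among the 766 annotated members the shares were 45.3% and 29.2%. Scaled to a common median ratio, the first list had 3 higher and 5 lower calls, and the second had 8 and 7. The pectin methylesterase transcript Sobic.006G172000.2 had 7.45, 4.22 and 19.06 RPKM in Int4, against 160.55, 145.25 and 155.02 in Int1. The higher calls of the esterase list included pectin acetylesterases, such as Sobic.003G384900.1 with 34.52, 35.83 and 33.43 in Int4, against 2.23, 2.75 and 2.78 in Int1. Other wall-degrading enzymes had 12 of 20 higher and 2 lower, including the cellulase-type Sobic.004G244600.1, with 56.15, 44.75 and 36.05 in Int4, against 0.40, 0.47 and 0.30 in Int1.

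Most callose genes fell. Callose is a glucan laid down at cell plates and plasmodesmata, and 6 of 7 members were called lower and 1 higher (median log2 fold change -1.83). The most abundant, Sobic.010G275800.1, had 23.55, 26.96 and 46.96 RPKM in Int4, against 183.18, 177.21 and 192.50 in Int1, while Sobic.001G521500.1, which has the same best Arabidopsis match, rose to 24.66, 26.34 and 23.38 in Int4, against 7.67, 7.12 and 6.32 in Int1. Sobic.001G085200.2, the match of a plasmodesmal callose-binding protein, had 0.06 in each Int4 library, against 5.69, 7.53 and 8.46 in Int1. After median-ratio scaling 4 of the falls and the rise were still called.

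**Figure D5:**
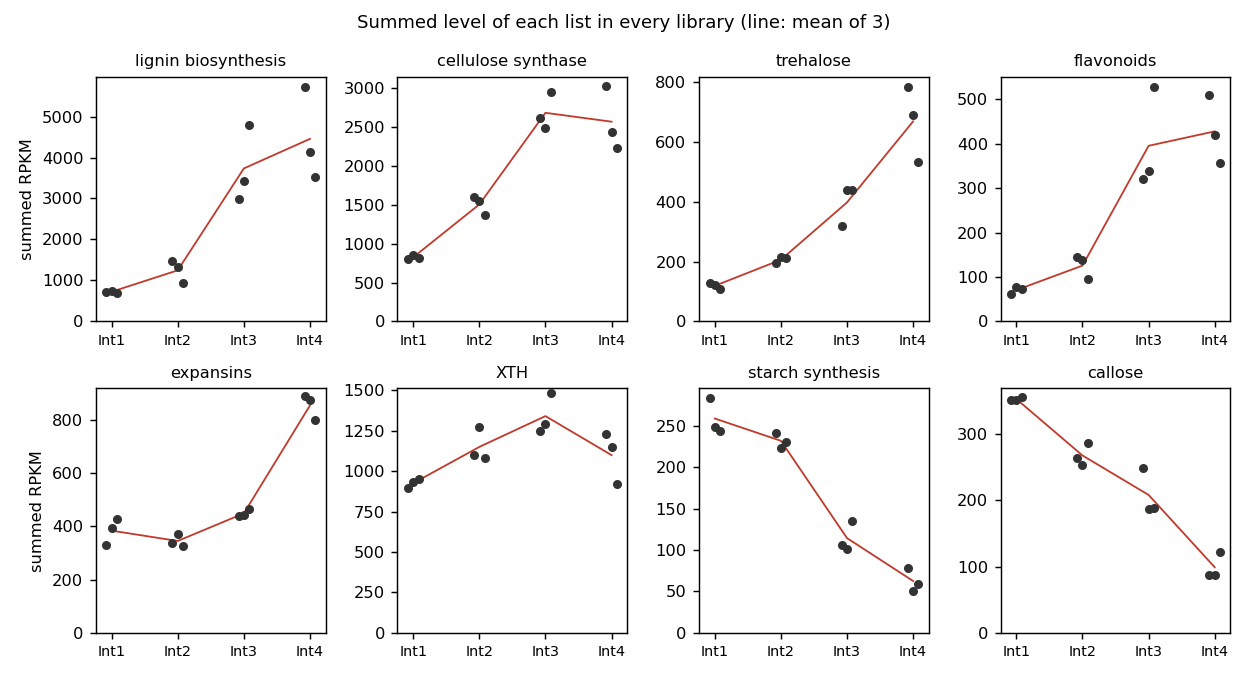
Summed RPKM of the members of 8 lists in each library of Int1, Int2, Int3 and Int4 (points) with the mean of 3 (line). Trehalose sums are highest in Int4, lignin, flavonoid and cellulose synthase sums overlap between Int4 and Int3, the XTH mean is highest in Int3, expansins step up at Int4, and starch synthesis and callose sums decline through the series.

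Across the 4 internodes these list sums followed different paths. The mean lignin sum was 725.2, 1248, 3733 and 4454 RPKM from Int1 to Int4, whereas the cellulose synthase sum was 825, 1505, 2682 and 2568 in the same order. The lignin sums overlapped between Int4 and Int3 (SD 1130 and 949). Expansins stayed near 383.4, 344.7 and 448.4 in Int1, Int2 and Int3 and reached 853.5 in Int4. Cellulose synthase transcripts thus stood at a like level in Int3 and Int4, with SD of 243 and 413, while the expansin sum in each Int4 library exceeded that in every other library.

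Starch genes fell on both sides of starch turnover. Of 8 starch synthesis members 7 were called lower and 0 higher, and of 7 starch degradation members 6 were lower and 0 higher, with medians of -1.71 and -1.88. After median-ratio scaling 1 starch synthesis transcript was called higher and the falls were as many. Granule-bound starch synthase Sobic.002G116000.1, which makes amylose, had 37.24, 14.58 and 13.08 RPKM in Int4, against 139.91, 117.82 and 124.28 in Int1, and the starch synthase Sobic.010G047700.1 had 4.69, 5.56 and 6.78 in Int4, against 46.27, 42.11 and 37.20 in Int1. On the other side, the disproportionating enzyme Sobic.002G383700.1, which handles the sugars freed from starch, had 1.83, 2.46 and 2.73 in Int4, against 14.93, 17.58 and 15.07 in Int1.

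Sucrose metabolism had 6 of 12 members called higher and 1 lower, against 45.3% and 29.2% of the 766 annotated members. That fall, of a fructokinase-type transcript (Sobic.001G172300.1), was lost when any 1 library of Int4 or Int1 was left out (adjusted p = 0.00137 to 0.00394). Fructose-1,6-bisphosphatase of the cytosol, a step toward sucrose, is the role of Sobic.003G367500.1, with 39.17, 34.73 and 22.81 RPKM in Int4, against 1.54, 2.26 and 1.61 in Int1. Sucrose synthase Sobic.010G072300.1, which can feed UDP-glucose to cellulose synthesis, had 246.29, 363.83 and 378.24 in Int4, against 155.82, 175.41 and 144.80 in Int1, a rise of just over 2-fold that was no longer called without Int4 replicate 2, Int4 replicate 3 or Int1 replicate 3 (log2 fold change 0.95, 0.92 and 0.97). A neutral invertase, Sobic.004G172700.1, which splits sucrose in the cytosol, had 121.25, 100.56 and 123.69 in Int4, against 31.89, 37.58 and 39.22 in Int1.

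Trehalose genes rose almost without exception, with 12 of 13 members called higher and 0 lower. Trehalose 6-phosphate is a signal of sucrose supply in plants, and trehalose-6-phosphate phosphatase (TPP) removes it. The TPP transcript Sobic.004G293500.3 had an RPKM of 101.82, 102.63 and 76.93 in Int4, against 0.12, 0.18 and 0.18 in Int1 (log2 fold change 7.15 ± 0.21, SE). Sobic.004G293500.1 and Sobic.004G293500.5, from the same gene, had log2 fold changes of 5.35 and 5.86. The most abundant listed transcript, the TPP Sobic.002G184600.1, had 410.93, 325.16 and 190.41 in Int4, against 73.16, 66.16 and 58.12 in Int1.

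Central energy metabolism was mixed, with exchanges between family members. Glycolysis had 6 of 21 members higher and 12 lower (6 and 10 after median-ratio scaling), and mitochondrial electron transport had 5 of 17 higher and 9 lower (6 and 6 after scaling). The most abundant glycolytic transcript, the dehydrogenase Sobic.004G205100.1, had 143.59, 110.49 and 115.61 RPKM in Int4, against 305.59, 304.09 and 285.39 in Int1. Phosphofructokinase Sobic.003G034700.1 rose to 41.63, 40.39 and 35.63 in Int4, against 8.93, 9.81 and 6.94 in Int1, while phosphofructokinase Sobic.006G114700.1 fell to 1.28, 0.63 and 1.41 in Int4, against 6.80, 5.41 and 4.34 in Int1. Both phosphofructokinases were called, in opposite directions. In the mitochondrion, the alternative oxidase Sobic.006G203000.1, which bypasses part of the respiratory chain, had 5.59, 5.66 and 4.17 in Int4, against 0, 0 and 0.06 in Int1. The other of the 2 alternative oxidase members was called lower. Their sum was lower too, at 25.46, 19.27 and 18.62 in Int4, against 52.03, 44.48 and 42.67 in Int1. The external NADH dehydrogenase Sobic.007G035700.1 had 144.28, 72.85 and 101.13 in Int4, against 21.32, 17.32 and 17.71 in Int1. The tricarboxylic acid list had 1 of 13 higher (2 without Int4 replicate 2 or Int1 replicate 2) and 4 lower, or 3 and 3 after scaling, and aconitase Sobic.006G000100.1 had 92.69, 87.70 and 88.51 in Int4, against 222.10, 239.75 and 195.63 in Int1.

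Lipid genes were called in both directions. Fatty acid synthesis and elongation had 12 of 32 members higher and 16 lower (12 and 12 after median-ratio scaling). Lipid transfer proteins had 7 of 11 higher and 2 lower, and lipid degradation 28 of 54 higher and 11 lower. Of the 766 annotated members, 45.3% rose and 29.2% fell. In the first list, enoyl-ACP reductase Sobic.007G112100.1, part of the plastid synthesis cycle, had 13.90, 13.20 and 19.91 RPKM in Int4, against 74.30, 77.31 and 76.24 in Int1. The acyl-ACP thioesterase Sobic.004G088100.1, which releases saturated fatty acids from that cycle, had 106.09, 162.06 and 158.59 in Int4, against 8.81, 8.61 and 7.70 in Int1.

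Among lipid transfer proteins, small secreted proteins found at cell surfaces, Sobic.008G030700.1 had 128.31, 95.60 and 75.87 RPKM in Int4, against 0.27, 0 and 0 in Int1 (log2 fold change 7.41 ± 0.31, SE). Phospholipase A2 Sobic.001G429900.1 had 88.77, 47.58 and 48.78 in Int4, against 0.46, 1.32 and 1.0 in Int1. An acyltransferase-type transcript of the sterol list, Sobic.002G128600.1, fell to 0.42, 0.38 and 0.62 in Int4, against 33.55, 32.34 and 26.19 in Int1. The wax list, with 6 members, had 3 higher and 3 lower.

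Photosynthesis genes served as a check for green tissue. The list had 8 of 25 members called higher and 7 lower, and after median-ratio scaling 13 higher and 4 lower. Without Int1 replicate 1 the number called lower was 4. Its summed RPKM was 565.5, 465.4 and 437.0 in Int4, against 396.2, 405.2 and 363.3 in Int1. The photosystem II subunit transcript Sobic.002G032700.1 had 3.91, 6.72 and 2.89 in Int4, against 0.18, 0 and 0.10 in Int1, and a plastid chaperonin-type transcript of the Rubisco bin, Sobic.009G098100.1, had 13.26, 13.88 and 13.18 in Int4, against 41.66, 37.29 and 33.79 in Int1. Sobic.001G314200.2, placed in the photosystem I bin, had 62.44, 45.90 and 38.84 in Int4, against 11.14, 12.32 and 12.77 in Int1. The 2 members of the photosystem I bin and the 2 of the photosystem II bin were all called higher in Int4. The other members were higher, lower or not called. The bins are annotation labels, and whether each member is a photosystem subunit was not checked. The most abundant member, the photorespiration transcript Sobic.008G039900.1, was also higher, with 182.13, 134.30 and 118.39 in Int4, against 55.95, 60.82 and 49.85 in Int1. The part of green cells in the other results was not tested.

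Metal handling genes had 12 of 25 members higher and 7 lower, near the 45.3% and 29.2% of the 766 annotated members. Their sum was carried by 1 metallothionein, Sobic.003G071901.1, with 792.77, 1558.36 and 1166.58 RPKM in Int4, against 1611.37, 2084.21 and 2321.22 in Int1, which was not called (log2 fold change -0.81, limma adjusted p = 0.0136). Isoprenoid genes had 5 of 22 higher and 4 lower (11 and 4 after median-ratio scaling). The mevalonate pathway enzyme HMG-CoA reductase Sobic.007G207600.1 had 27.72, 26.84 and 27.45 in Int4, against 90.72, 89.55 and 65.41 in Int1, while the terpene synthase-type transcript Sobic.007G055700.1 had 58.76, 92.80 and 69.12 in Int4, against 5.07, 5.33 and 4.71 in Int1.

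At the level of genes, 2998 had a transcript called higher and 3524 a transcript called lower, and only 3 genes had both. In Sobic.003G048500, annotated as a carboxylesterase, Sobic.003G048500.2 had 10.73, 12.95 and 16.94 RPKM in Int4, against 144.12, 161.10 and 158.76 in Int1, while Sobic.003G048500.1 had 58.52, 61.33 and 46.01 in Int4, against 21.02, 29.29 and 26.71 in Int1. In Sobic.010G176900 and Sobic.005G061500, for which the sources used here give no role, 1 transcript fell and another rose. Sobic.005G061500.1 had 16.83, 33.39 and 25.61 in Int4, against 1.02, 1.21 and 1.15 in Int1, and Sobic.005G061500.2 had 2.74, 1.78 and 5.17 in Int4, against 15.39, 14.14 and 13.48 in Int1. These 3 genes were singled out after their values were seen.

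The members not called numbered 18642. For 10394 of them the 95% interval of the fold change lay wholly within 2-fold in either direction, so a larger mean change lay outside that interval. For the other 8248 the interval reached beyond 2-fold. Some of these were left uncalled by the level rule, which barred all 4163 members whose higher mean was below an RPKM of 2. Sobic.006G026500.1, for example, had a 95% interval of 1.322 to 1.913 in log2 fold change. The rest missed the limit on fold change or on adjusted p, so a change of that size was not established by the rule with 3 libraries a group.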

How the data were processed

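Libraries were made from polyadenylated RNA of whole internodes, the 4 stages being taken from 3 plants, and read as single ends. The authors aligned the reads to the transcripts of the sorghum v3.1 annotation in CLC Genomics Workbench and deposited RPKM values, rounded to 2 decimals, for 12 libraries. The authors ran their own differential expression in edgeR within CLC. Since the table holds RPKM and no counts, no count test was run and no counting interval was given. Relative depth was taken from transcripts whose values above 0 all lay at the spacing of 1 read (15 to 25 transcripts per library).

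Values were transformed to log2(RPKM + 0.5), a scale that understates the change of low transcripts. In R 4.3.3, limma 3.58.1 was fitted to the 26320 transcripts averaging an RPKM of 1 or more in some internode, with a mean for each internode over all 12 libraries, a trend of variance on level, the contrast Int4 minus Int1 and Benjamini-Hochberg adjustment over all transcripts fitted. In simulated data made for this contrast, 175 of 200 changed transcripts were recovered with 0 false calls among 24368 fitted. The planted changes were larger than the 2-fold limit and were confined to transcripts above a minimum level. Noise was normal with the same spread in every internode, and no other transcript changed. The simulation therefore checks the working of the fit and gives no error rate for the real calls. The stages may thus share plants, but the labels do not tie a replicate number to a plant, so the fit was unpaired and p-values measure the spread between these libraries only.

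The text names the 8 largest rises and falls in log2 fold change, the 5 in RPKM, the 3 largest of each list with its most abundant member, cellulose synthase and lignin members (1 lignin transcript is not reported here), the 3 most abundant transcripts of each internode and the 10 with primers. Others are said to be chosen after their values were seen. Members, lists and rules were chosen with earlier results of these data known. Lists came from the study's table of annotated transcripts. Lists by RefSeq product (histones, cyclins, other dividing-cell or phloem markers) and promoter searches were not run, because identifiers could not be matched, and the tissue check thus rests on cellulose synthase and photosynthesis transcripts. Alternatives were other pseudocounts (0.1 and 1), median-ratio scaling, other filters, library weights, a fit of the 6 libraries alone, an adjusted p under 0.05, a replicate block and leaving out each library.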

Additional observations from a re-analysis of the deposited data

How the results depend on the processing

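The numbers of calls kept within 1.5 times their main value under every alternative run, and no transcript was called in opposite directions by any pair of the 23 fits. In all 23 fits, 2356 transcripts were called higher and 1957 lower. Leaving out each library in turn gave 3000 to 3273 higher calls and 3174 to 3956 lower calls, the lowest lower count without Int4 replicate 1 and the highest without Int4 replicate 3. The median log2 fold change of all members moved to -0.026 under median-ratio scaling and stayed between -0.291 and -0.231 when single libraries were left out. Of the 292 transcripts open to naming, 267 were called, 236 of them in every setting, and 31 lost the call in at least 1. Of 72 list counts, 10 moved by over 1.5 times under scaling, 6 under the block on 6 libraries and at most 3 under any other setting. Same-numbered Int4 and Int1 libraries deviated together weakly (r of 0.075, 0.047 and 0.108 across transcripts, which are not independent replicates), and each Int4 library correlated best with its own number. Int1 replicate 2 had the same r of 0.047 with Int4 replicate 1. Deviations from a mean of 3 libraries constrain each other, so these values cannot decide whether numbers mark plants, and the labels do not state it. With the replicate number as a block the calls were 3179 higher and 3530 lower over 12 libraries, and 2904 and 2840 over 6. Depth in reads per transcript was not part of the table, and calls near an RPKM of 2 rest on the fewest reads.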
